A study of Mus musculus with 6 samples.

Results

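DNA replication and S phase genes were followed as a group of 38 mouse genes, listed by symbol as parts of the machine that copies chromosomes or as genes that switch on with it. Members were found by matching every probe set (a group of short probes for 1 transcript) whose annotation carries exactly 1 gene symbol. By this match 37 of the 38 genes were measured, with 82 of 45037 probe sets and among 18193 named genes. Chaf1a, a histone chaperone subunit, had no probe set with its symbol alone and was not analysed here. The probe set with the highest mean signal stands for each gene; 8 members had a single probe set and 29 had more. All 37 of these brightest probe sets passed the level filter described with the processing, as did 73 of the 82 probe sets.

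The study was set up to find genes regulated by PCAF or GCN5, related histone acetyltransferases (enzymes that add acetyl groups to histones and other proteins). RNA of immortalized MEFs (mouse embryonic fibroblasts, cells of embryonic connective tissue kept in culture) was measured on 6 Affymetrix arrays. The first group was PCAF-/-;GCN5+/- and the second PCAF-/-;GCN5-/-, with 3 arrays each, so that controls and mutants alike lacked PCAF (gene Kat2b). Line A gave a duplicate RNA per group (arrays A1 and A2), and line B, immortalized separately, gave 1 (array B). The cells carried a conditional GCN5 gene (Kat2a) and received a retrovirus, either empty or with Cre, the recombinase that deletes it. Array labels do not name the virus. GCN5+/- was read as the vector arm and GCN5-/- as the Cre arm, so virus and genotype changed together and cannot be told apart. Cells were grown in DMEM with 10% FBS under puromycin selection, per the labels, which state no age or strain. With 2 independent lines, and duplicates of 1 of them supplying most of the measured spread, the p-values below say little about other lines.

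Chromosomes are copied once per cell cycle. In G1 the origin recognition complex, Cdc6 and Cdt1 load the ring-shaped MCM complex onto DNA, which licenses an origin. At the start of S phase Cdc45 and the GINS complex join the MCM ring to form the active helicase, and polymerases, a sliding clamp and a supply of deoxynucleotides do the copying. Many of these genes are transcribed in late G1 under E2F factors, which the retinoblastoma family restrains and cyclin E with its kinase releases.

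The arrays were checked first. Medians of log2 signal lay between 7.41 and 7.46 over the 6 arrays. Log2 differences between the duplicates of line A had a standard deviation (SD) of 0.219 and 0.211, against 0.465 between GCN5+/- A1 and GCN5+/- B. Of 3 Kat2a probe sets, 1 differed by -2.44 ± 0.36 (standard error, SE; limma adjusted p = 0.00823) between GCN5-/- and GCN5+/- arrays, another by -0.75 ± 0.13 (adjusted p = 0.0190), while the last, at 0.18 ± 0.16, was not called. These Kat2a values come from a fit without the level filter, over all 45037 probe sets. Where the Kat2a probe sets lie relative to the deleted part was not analysed here. Differences of the 3 prime over the 5 prime control probes of beta-actin were 0.07 to 0.12 log2 in GCN5+/- and 0.09 to 0.11 in GCN5-/- arrays. Of 10 measured fibroblast markers all passed the level filter, whereas 3 of 8 leukocyte, 4 of 5 endothelial and 2 of 5 epithelial markers did not, Ptprc, Pecam1 and Cdh1 among them. Thy1 passed through line B alone (9.54 and 8.60), with line A signals of 6.02 to 6.21, under the filter level of 6.80. The rest of the other lists passed, with mean log2 signals of 9.69 for Cd53, 9.18 for Csf1r, 8.92 for Epcam and 8.38 for Kdr.

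Part of the replication machinery was higher in GCN5-/- cells, chiefly the MCM helicase with Cdc45. A gene was called when its Benjamini-Hochberg adjusted p in limma, over all probe sets tested, was under 0.05. Of 37 members 8 were called higher in GCN5-/- arrays: Mcm2, Mcm3, Mcm5, Mcm6, Cdc45, Cdt1, Ccne1 and Slbp. Over all 12626 genes tested the share called higher was 5.09%. No member was called lower (0 of 37, against 4.77% of all genes); at an unadjusted p under 0.05 limma gave 15 members higher (13.6% of all genes) and 1, Gins2, lower (13.1% of all genes). The median difference over the 37 members was 0.18 log2 units, against 0.01 over all genes tested, and 29 of 37 had a positive value (6514 of all 12626 genes). Signals of the groups did not overlap for 11 members with GCN5-/- above (9.49% of all genes) and for 0 members with GCN5-/- below (8.74%). Counted by probe set, 14 of the 73 tested were called higher (4.20% of all probe sets) and 0 lower, and they belonged to these 8 genes. In RNA of whole cultures, more cells in S phase and more transcript per cell cannot be told apart.

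The count of 8 depended on how the 2 lines enter the fit and on single arrays. It was 0 without a line term and 0 with the line A duplicates averaged, where limma gave 9 members higher at an unadjusted p under 0.05 in both settings. It was 2 (Mcm6 and Slbp) with line as a random block and 4 without the variance trend. Leaving out GCN5-/- A2 gave 0 calls (11 higher at an unadjusted p under 0.05), GCN5+/- A1 gave 1 (Mcm5), and GCN5+/- A2 or GCN5-/- A1 gave 3 (Mcm5, Mcm6 and Slbp). Without either line B array the count was 11, with Mcm10, Pcna and Rfc5 added. The share of all genes at an unadjusted p under 0.05 was not counted in these settings. The unadjusted counts given here therefore have no background to be read against. Over the settings the size of the difference lay between 0.32 and 0.39 for Mcm6 and between 0.24 and 0.36 for Mcm2. In this balanced design the line term, the blocks, the level filter and the variance trend cannot change that size. Only averaged duplicates, quantile normalization, left-out arrays and line A alone could move it. Wider ranges were those of Cdt1, between 0.28 and 0.44, and Ccne1, between 0.36 and 0.53.

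**Figure D1:**
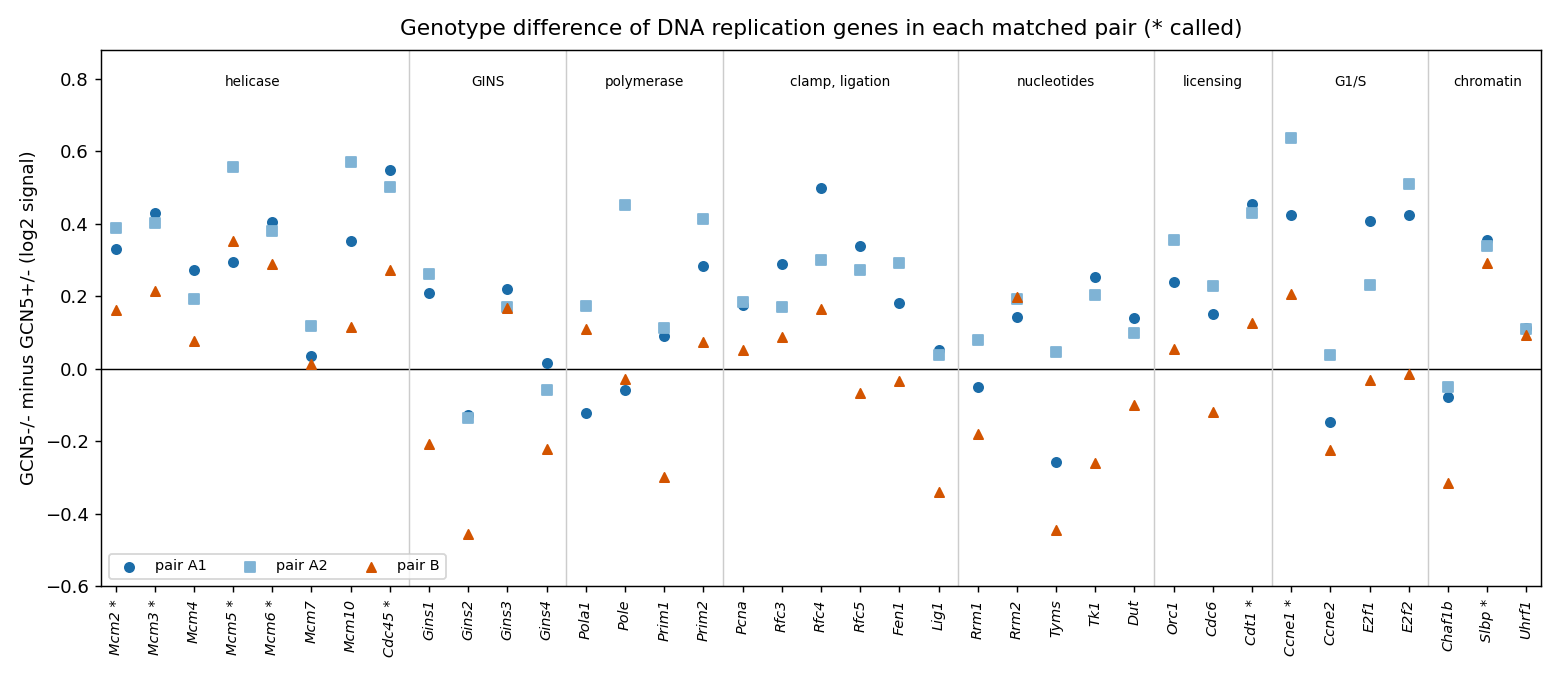
Difference in log2 signal (vertical axis, GCN5-/- minus GCN5+/-) of the 37 measured members, by role, in the matched pairs A1 (circles), A2 (squares) and B (triangles); an asterisk marks the 8 called genes. All 8 helicase genes lie above 0 in the 3 pairs, and the triangles of line B lie below both line A symbols for most members of every role but the polymerases.

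The promoters of called members are shown first, because E2F is the factor these genes are known for. Sequences are from RefSeq on GRCm38.p6, in a window of 250 bases before to 50 after each annotated start, which was given for 31 of the 38 members. The arrays measured no factor and no chromatin mark, so these letters describe the genes and not the difference. Capitals mark matches to any of 4 eight-letter E2F forms (TTTGGCGC, TTTCCCGC, TTTCGCGC and TTTGCCGC, searched on both strands), and positions count from the start site. Shown for Mcm6 and Mcm5 are the 200 bases before the start, chr1:128359706-128359905 on the minus strand and chr8:75109309-75109508 on the plus strand; for Mcm7, which was not called, the same stretch is chr5:138171884-138172083 on the minus strand. For Mcm3 and Cdt1 the matches lie after the start, and 28 bases around 1 match of each are shown, chr1:20820276-20820303 on the minus strand and chr8:122568037-122568064 on the plus strand.
Mcm6: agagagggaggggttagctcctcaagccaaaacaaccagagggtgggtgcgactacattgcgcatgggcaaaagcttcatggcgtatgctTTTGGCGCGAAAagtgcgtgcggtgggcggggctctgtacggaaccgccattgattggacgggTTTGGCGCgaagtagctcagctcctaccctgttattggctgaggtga
Mcm5: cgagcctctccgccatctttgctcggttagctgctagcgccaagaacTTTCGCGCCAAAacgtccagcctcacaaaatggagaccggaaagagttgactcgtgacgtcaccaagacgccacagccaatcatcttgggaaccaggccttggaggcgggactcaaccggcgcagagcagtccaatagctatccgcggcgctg
Mcm7: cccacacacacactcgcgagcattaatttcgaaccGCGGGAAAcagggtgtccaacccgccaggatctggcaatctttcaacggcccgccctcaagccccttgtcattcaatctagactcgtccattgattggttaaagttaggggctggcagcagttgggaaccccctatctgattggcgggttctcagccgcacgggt
Mcm3: aacttccgtgGCGGGAAAacttgggaag
Cdt1: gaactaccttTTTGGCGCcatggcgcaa
In Mcm6 a pair of overlapping matches at -110 to -99 reads as E2F forms on both strands, and a further match lies at -47 to -40. In Mcm5 an overlapping pair lies at -153 to -142. Mcm7 has a match at -165 to -158 on the strand opposite to the gene and another, not shown, at 17 to 24 on its own strand. Mcm3 has the match shown at 20 to 27 on the opposite strand and another, not shown, at 39 to 46 on its own strand. The Cdt1 match at 33 to 40 is on its own strand. An E2F form was found in 13 of 31 member genes with a window (41.9%), against 704 of 27025 genes in the table (2.60%). CCAAT was found in 19 of 31 (61.3%, against 41.1% of all genes), and the CHR letters TTTGAA in 5 of 31 (16.1%, against 20.2%). Neither CCAAT nor TTTGAA contains an E2F form or lies within one. Among called members 4 of 8 held an E2F form (Mcm3, Mcm5, Mcm6 and Cdt1), and among measured members that were not called it was 9 of 22 (Mcm7, Gins3, Pola1, Rfc3, Lig1, Orc1, Cdc6, E2f2 and Uhrf1). The difference between these shares was not tested, and a match is a description of the letters only.

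The helicase genes were the role with most calls, 5 of 8 (Mcm2, Mcm3, Mcm5, Mcm6 and Cdc45), against 5.09% of all genes called higher. Their median difference was 0.35, and all 8 had a positive value (6514 of all 12626 genes). The other roles hold 3 to 6 genes, so that 0 calls in a role lie near the share of all genes. Mcm6, a subunit of the MCM ring, had log2 signals of 12.57, 12.66 and 12.77 in GCN5+/- arrays (in the order A1, A2, B, used throughout) and of 12.98, 13.04 and 13.06 in the GCN5-/- arrays. Every GCN5-/- array was above every GCN5+/- array. Its difference was 0.36 ± 0.05 (SE, limma adjusted p = 0.00845), or 1.28-fold, and its second tested probe set gave 0.48 ± 0.11 (adjusted p = 0.0366). That second probe set carries the suffix _x_at, explained below with Mcm5.

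Mcm3, another ring subunit, had signals of 12.01, 12.07 and 12.32 in GCN5+/- arrays and of 12.44, 12.47 and 12.53 in GCN5-/- arrays. The groups did not overlap, and the line B control was the highest of the GCN5+/- arrays. The difference was 0.35 ± 0.06 (limma adjusted p = 0.0177), and 3 further probe sets were called at 0.32 to 0.37, while the dimmest was not (0.14 ± 0.10). Mcm2, whose subunit also carries histones at the fork, had 11.81, 11.88 and 12.08 against 12.14, 12.26 and 12.24. Its groups lay apart by a narrow margin, with GCN5+/- B just under GCN5-/- A1. The difference was 0.29 ± 0.07 (limma adjusted p = 0.0444), and its other probe set, at 0.19 ± 0.07, was not called (adjusted p = 0.120).

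Mcm5 stood between the lines as well as between the genotypes. Its GCN5+/- signals were 12.18, 12.09 and 12.72 and its GCN5-/- signals 12.48, 12.64 and 13.08, so that the groups overlapped: the line B control was above both line A mutants. Within each matched pair the mutant was higher, by 0.29, 0.56 and 0.35, and the fit gave 0.40 ± 0.07 (limma adjusted p = 0.0108). The brightest Mcm5 probe set carries the suffix _x_at, which Affymetrix gives to probe sets with probes that may match other transcripts. A second Mcm5 probe set, without that suffix, gave 0.41 ± 0.08 (adjusted p = 0.0189), while the third and dimmest, at 0.19 ± 0.12, was not called (adjusted p = 0.394).

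Cdc45, which joins the ring when an origin fires, had signals of 10.25, 10.28 and 10.63 in GCN5+/- arrays and of 10.79, 10.78 and 10.90 in GCN5-/- arrays. The groups did not overlap and the difference of 0.44 ± 0.09 (limma adjusted p = 0.0226), 1.36-fold, was the largest among the 37 members. A second, dimmer probe set of Cdc45 gave 0.12 ± 0.11 and was not called. Mcm10, a scaffold between helicase and primase, had 10.56, 10.49 and 10.58 against 10.91, 11.06 and 10.69, again without overlap. Its difference of 0.35 ± 0.10 missed the threshold (limma adjusted p = 0.0735).

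The ring subunits did not give the same values throughout. Mcm7 had 13.52, 13.53 and 13.65 in GCN5+/- arrays and 13.55, 13.64 and 13.66 in GCN5-/- arrays, with overlap. Its difference was 0.06 ± 0.04, with a 95% interval of -0.04 to 0.16 (limma adjusted p = 0.497), and its 3 other probe sets lay between -0.02 and 0.05. Mcm4, the remaining ring subunit, had 12.56, 12.69 and 13.03 against 12.84, 12.88 and 13.11, with overlap through line B. Its difference of 0.18 (95% interval 0.04 to 0.32) was not called (limma adjusted p = 0.104). Differences between ring subunits were not tested, since they share arrays and each probe set responds on its own scale.

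**Figure D2:**
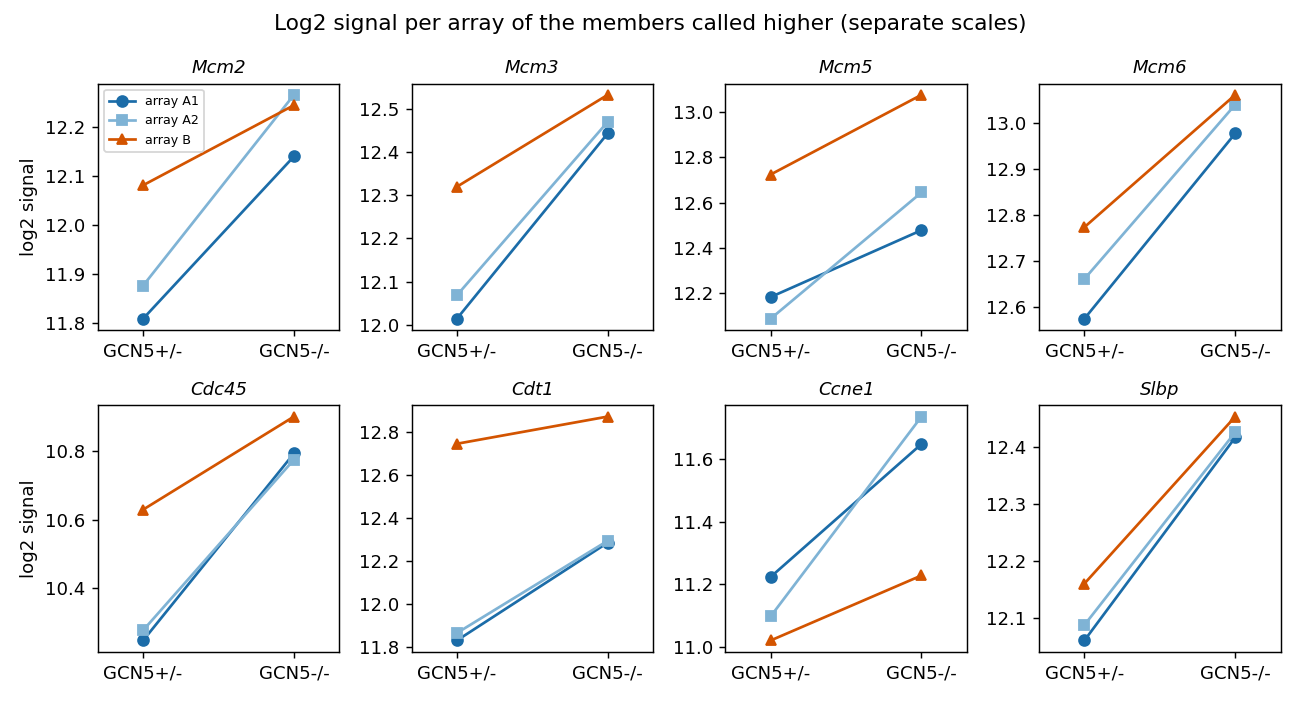
Log2 signal (vertical axes, separate scales) of the 8 called members in each of the 6 arrays, with lines joining the GCN5+/- and GCN5-/- arrays of the same name. Every line rises. Mcm5 and Cdt1 show the line B arrays far above line A, while for Slbp the 3 pairs lie close together.

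GINS genes encode the subunits of the complex that joins Cdc45 on the MCM ring. Limma called 0 of 4 (9.86% of all genes were called in either direction), and the median difference was 0.00. At an unadjusted p under 0.05 limma gave 1, lower (13.1% of all genes). Gins2 had signals of 11.57, 11.58 and 12.19 in GCN5+/- arrays and of 11.44, 11.44 and 11.74 in GCN5-/- arrays. It was lower in the mutant of each pair, by 0.13, 0.14 and 0.46 in size, though line B lay above line A in both groups. The fit gave -0.24 ± 0.08 (limma adjusted p = 0.119), and the second probe set -0.27 ± 0.10. Gins1 had 0.09 (95% interval -0.17 to 0.35), Gins3 0.19 (-0.02 to 0.39) and Gins4 -0.09 (-0.27 to 0.10). Values of the GINS genes thus lay on both sides of 0.

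Polymerase and primase genes had 0 of 4 calls in limma (9.86% of all genes were called) and a median of 0.09. At an unadjusted p under 0.05 limma gave 1, higher (13.6% of all genes). Prim2, the large primase subunit, had 10.10, 10.13 and 10.51 against 10.38, 10.54 and 10.58, a difference of 0.26 ± 0.10 (limma adjusted p = 0.149). Prim1, the catalytic primase subunit, had -0.03 (95% interval -0.25 to 0.18). Pola1, of the polymerase that extends primers, had 0.05 ± 0.10, and Pole, of the leading-strand polymerase, 0.12 ± 0.12. Both Pola1 and Pole differed in sign between the duplicates of line A, at -0.12 and 0.17 and at -0.06 and 0.45.

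Among the clamp, clamp loader and Okazaki fragment genes 0 of 6 were called in limma (9.86% of all genes were called). At an unadjusted p under 0.05 limma gave 2, both higher (13.6% of all genes). Values were positive for 5 of 6 (6514 of all 12626 genes), with a median of 0.16. Pcna, the sliding clamp, had signals of 13.75, 13.77 and 13.88 in GCN5+/- arrays and of 13.93, 13.95 and 13.93 in GCN5-/- arrays. The groups did not overlap, yet the difference was small at 0.14 ± 0.04 and missed the threshold (limma adjusted p = 0.0806). Among the loader subunits Rfc4 had 0.32 ± 0.09 (limma adjusted p = 0.0735), Rfc3 0.18 ± 0.10 and Rfc5 0.18 ± 0.09. Fen1, the flap nuclease, had 0.15 ± 0.08, and Lig1, the ligase that seals the fragments, -0.08 ± 0.09.

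Genes of nucleotide supply had 0 of 5 calls in limma (9.86% of all genes were called) and the lowest median after GINS, at 0.05. At an unadjusted p under 0.05 limma gave 1, higher (13.6% of all genes). Rrm2, the small subunit of ribonucleotide reductase, had 12.45, 12.48 and 12.38 in GCN5+/- arrays against 12.59, 12.67 and 12.58 in GCN5-/- arrays. Its groups did not overlap, and the difference of 0.18 ± 0.05 was not called (limma adjusted p = 0.0850). Rrm1, the large subunit, had -0.05 (95% interval -0.20 to 0.10). Tyms, which makes thymidylate, had -0.22 ± 0.12, Tk1, which salvages thymidine, 0.06 ± 0.10, and Dut, which removes dUTP, 0.05 ± 0.07. The second Dut probe set gave 0.32 ± 0.11 (adjusted p = 0.113), so that the probe sets of Dut differed in size.

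Of the 3 licensing genes that load the helicase 1 was called higher (5.09% of all genes). Cdt1, the loading factor whose protein is removed once S phase begins, had signals of 11.83, 11.87 and 12.75 in GCN5+/- arrays and of 12.29, 12.29 and 12.87 in GCN5-/- arrays. Line B lay above both groups of line A, so the groups overlapped although each pair rose. The difference was 0.34 ± 0.08 (limma adjusted p = 0.0332), and its second tested probe set, at 0.33 ± 0.09, just missed the threshold (adjusted p = 0.0583). Orc1, the largest origin recognition subunit, had 0.22 ± 0.10 with groups that did not overlap (limma adjusted p = 0.243), and Cdc6, its partner in loading, had 0.09 ± 0.10.

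Among the regulators of entry into S phase 1 of 4 was called higher (5.09% of all genes). Ccne1, cyclin E1, had signals of 11.22, 11.10 and 11.02 in GCN5+/- arrays and of 11.65, 11.73 and 11.23 in GCN5-/- arrays. The lowest mutant array, of line B, was just above the highest control. The difference was 0.42 ± 0.09 (limma adjusted p = 0.0298), and its other probe set gave 0.41 ± 0.10 (adjusted p = 0.0457). At that other probe set the groups overlapped, with GCN5-/- B at 10.68 and GCN5+/- A2 at 10.70. The brightest Ccne1 probe set carries the suffix _x_at, as for Mcm5, and the other does not. Ccne2, the other E cyclin, had -0.11 ± 0.10, and the difference between the cyclins was not tested. The activator E2F genes had 0.20 ± 0.09 (E2f1) and 0.31 ± 0.13 (E2f2), neither called (limma adjusted p = 0.237 and 0.204).

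Of 3 measured genes for chromatin behind the fork and for histone mRNA 1 was called higher (5.09% of all genes). Slbp, which binds the stem-loop of histone mRNA, had 12.06, 12.09 and 12.16 in GCN5+/- arrays and 12.42, 12.43 and 12.45 in GCN5-/- arrays. The groups lay far apart relative to their spread, with SDs of 0.05 and 0.02 (n = 3). The difference was 0.33 ± 0.06 (limma adjusted p = 0.0124), but its second tested probe set gave -0.02 ± 0.11 (adjusted p = 0.928). Uhrf1, which guides DNA methylation to new strands, had 0.10 ± 0.07, and Chaf1b, a subunit of the chaperone that places histones on new DNA, had -0.15 ± 0.09 with a negative value in each pair.

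The comparison of the lines asked whether the genotype difference was the same in line B as in line A. In line A alone the median difference over members was 0.23 and 11 of 37 were called higher (5.77% of all genes), the 8 above with Mcm10, Pcna and Rfc5. Line B had 1 array per group and so no spread of its own. In it the median was 0.05 and 20 of 37 were positive (6081 of all 12626 genes). Signals of the duplicates did not overlap in line A for 28 of 37 members with GCN5-/- above, where 30.2% of all genes did this. The count of 11 became 5 without GCN5+/- A1, 7 without GCN5+/- A2 and 7 without GCN5-/- A2, 1 without the variance trend, and 18 with the replicate names as a block (11.2% of all genes).

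At the brightest probe set the value in line B was below that in line A for 35 of 37 members, where it was below for 53.6% of all genes. Lists read further below had this order too: 49 of 55 other replication genes and 29 of 34 G2 and mitosis genes. Of the G1 and S cyclins, kinases and inhibitors 15 of 18 had it, against 7 of 17 E2F, DP and pocket protein genes. Other tested probe sets of the members did not all share this order. A second probe set gave 0.67 in line B and 0.38 in line A for Mcm6, and 0.33 and 0.06 for Mcm4. Both of these probe sets carry the suffix _x_at, so their probes may match other transcripts. For Cdt1 the second kept the order, with 0.08 in line B and 0.45 in line A. The test of that difference, the genotype by line interaction in limma, called 0 members (0.0396% of all genes were called). At an unadjusted p under 0.05 it gave 7 members, all with the smaller value in line B (5.39% of all genes): Gins1, Gins2, Prim1, Rfc5, Lig1, Tk1 and Cdt1. At that p it gave 10 of 55 other replication genes and 7 of 34 G2 and mitosis genes, all in the same direction. With the replicate names as a block, which leaves 1 residual degree of freedom, the interaction called 1 member, Tk1 (2.13% of all genes were called).

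Tk1 gave the lowest interaction p of the members. Signals were 12.26, 12.36 and 12.69 in GCN5+/- against 12.51, 12.56 and 12.43 in GCN5-/- arrays. The mutant was higher in both line A pairs and lower in line B. The interaction was -0.49 ± 0.11 (limma adjusted p = 0.253, and adjusted p = 0.0495 with the block). Lig1 had 11.59, 11.62 and 11.87 against 11.64, 11.65 and 11.53, an interaction of -0.38 ± 0.13 (limma adjusted p = 0.481). Prim1 had 11.25, 11.25 and 11.83 against 11.34, 11.37 and 11.53, with an interaction of -0.40 ± 0.13 (limma adjusted p = 0.499). At these probe sets GCN5+/- B was the highest of the 6 arrays. The second Prim1 probe set did not repeat this: its interaction was -0.038 ± 0.17 (adjusted p = 0.999). Among the called genes the gap between lines was widest for Ccne1, with 0.53 in line A, 0.21 in line B and an interaction of -0.32 ± 0.15 (limma adjusted p = 0.718). It was narrowest for Slbp, with 0.35, 0.29 and -0.05 ± 0.11 (adjusted p = 0.993).

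The same arrays can be read as a difference in level between lines. The fit called 8 of 37 members higher in line B (13.2% of all genes) and 1 lower (13.5%). Cdt1 differed by 0.74 ± 0.08 (limma adjusted p = 0.000498), Gins4 by 0.62 ± 0.09, Mcm5 by 0.55 ± 0.07, Gins3 by 0.54 ± 0.10, Gins2 by 0.46 ± 0.09, Rfc4 by 0.42 ± 0.10, Prim1 by 0.38 ± 0.10 and Mcm4 by 0.33 ± 0.06. Of the 4 GINS genes 3 are in this set, and Gins4, with 10.94, 11.05 and 11.71 in GCN5+/- and 10.95, 11.00 and 11.49 in GCN5-/- arrays, separated the lines and not the genotypes. Rrm1 was the member called lower in line B, at -0.25 ± 0.07 (limma adjusted p = 0.0380). That call was lost without GCN5+/- A1, GCN5-/- A1, GCN5-/- A2 or GCN5-/- B, and without GCN5+/- B the counts were 3 higher and 2 lower.

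In GCN5+/- arrays line B was above the line A mean for 33 of 37 members, with a median of 0.24, and in GCN5-/- arrays for 22 of 37, with a median of 0.02. Of all 12626 genes tested 6889 were above in GCN5+/- (median 0.03) and 6362 in GCN5-/- arrays (median 0.002). The gap between these values is the interaction itself, seen from the other side, and adds no second test. For E2f2 line B was above line A by 0.68 in GCN5+/- and by 0.21 in GCN5-/- arrays; for Gins3 the gap was 0.55 and 0.52.

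**Figure D3:**
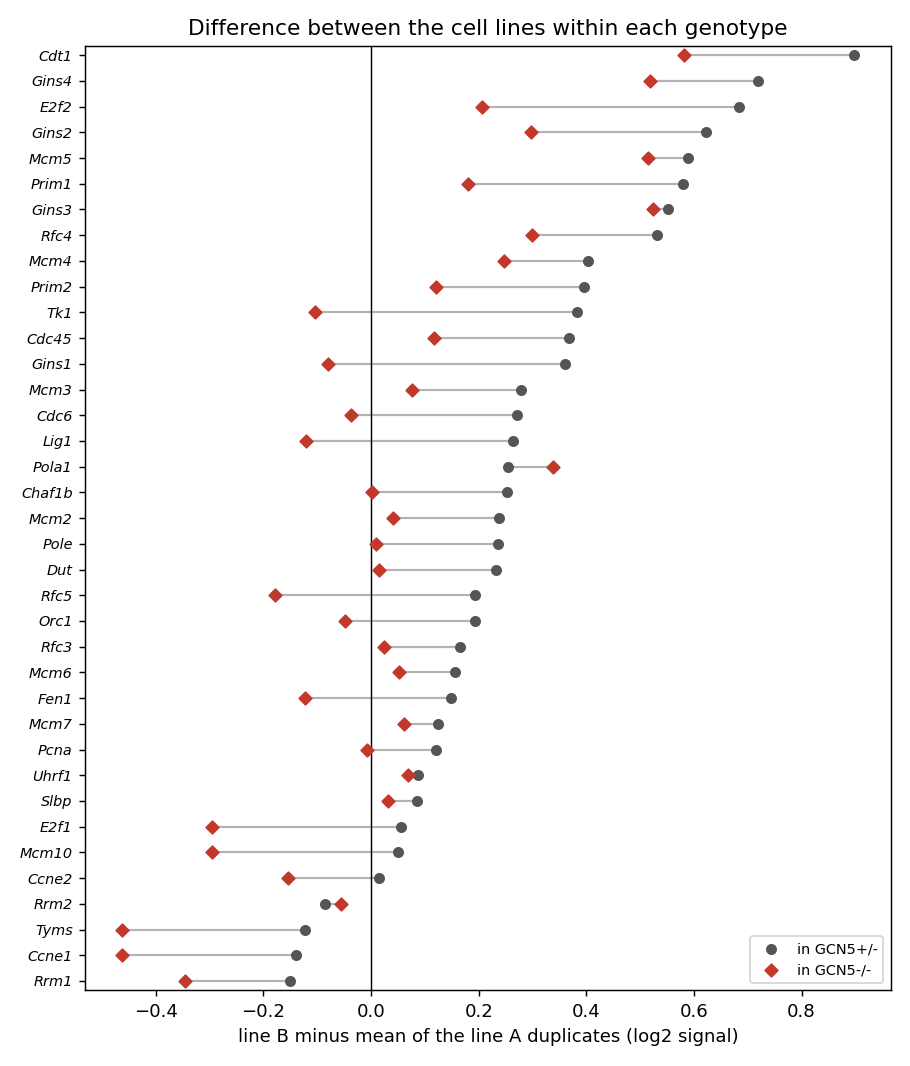
Difference in log2 signal between line B and the mean of the line A duplicates (horizontal axis) for each of the 37 members, in GCN5+/- (grey circles) and GCN5-/- (red diamonds) arrays. The diamonds lie to the left of the circles for 35 members, the exceptions being Pola1 and Rrm2, and most circles lie to the right of 0.

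Genes around the members were read from 4 lists. Among 55 other tested replication genes (further polymerase, origin, RPA, fork protection and nucleotide genes) 1 was called higher (5.09% of all genes) and 0 lower (4.77%) in limma. Their median was 0.10, and 44 of 55 were positive (6514 of all 12626 genes). The called gene was Rrm2b, the ribonucleotide reductase subunit induced by p53, with 9.46, 9.54 and 9.62 in GCN5+/- and 9.85, 9.92 and 10.15 in GCN5-/- arrays, without overlap (0.44 ± 0.09; limma adjusted p = 0.0259). At an unadjusted p under 0.05 the list had 15 higher (13.6% of all genes) and 2 lower (13.1%). E2F, DP and pocket protein genes had 0 of 17 called in limma (9.86% of all genes were called) and a median of 0.10. At an unadjusted p under 0.05 they had 3 higher (13.6% of all genes) and 1 lower (13.1%). G2 and mitosis genes had 0 of 34 called (9.86% of all genes) and a median of 0.02, near that of all genes. At an unadjusted p under 0.05 they had 2 higher (13.6% of all genes) and 2 lower (13.1%).

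Cyclins, kinases and inhibitors of G1 and S phase moved in both directions, with 2 of 18 higher (5.09% of all genes) and 5 lower (4.77%). Cdkn1c, the inhibitor p57, had signals of 10.22, 10.56 and 10.73 in GCN5+/- arrays and of 9.01, 9.06 and 9.18 in GCN5-/- arrays, far apart, a difference of -1.42 ± 0.11 (limma adjusted p = 0.000494). Cdkn1b, the inhibitor p27, had 11.32, 11.18 and 10.87 against 10.73, 10.34 and 10.15, a difference of -0.72 ± 0.11. The INK4 family inhibitors Cdkn2a, Cdkn2b and Cdkn2c differed by -0.47 ± 0.08, -0.49 ± 0.07 and -0.47 ± 0.07. Cdkn2d, of the same family, had a positive value and was not called (0.13 ± 0.09, limma adjusted p = 0.404). Higher were Myc, a growth transcription factor, at 0.54 ± 0.09 (limma adjusted p = 0.0139), and Cdk6, a kinase that phosphorylates the retinoblastoma protein, at 0.44 ± 0.08. Cdkn1a, the inhibitor p21, had 0.00, and Ccnd1, cyclin D1, had 0.13 with a limma adjusted p of 0.64. For Cdkn1c, Cdkn1b and Cdkn2a the value in line B (-1.54, -0.72 and -0.53) was at least as large in size as in line A (-1.35, -0.71 and -0.43). For the other 4 called genes it was smaller in size in line B: -0.39 against -0.54 for Cdkn2b, -0.42 against -0.50 for Cdkn2c, 0.24 against 0.54 for Cdk6 and 0.33 against 0.64 for Myc. The interaction was called for none of these 7 genes in limma.

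**Figure D4:**
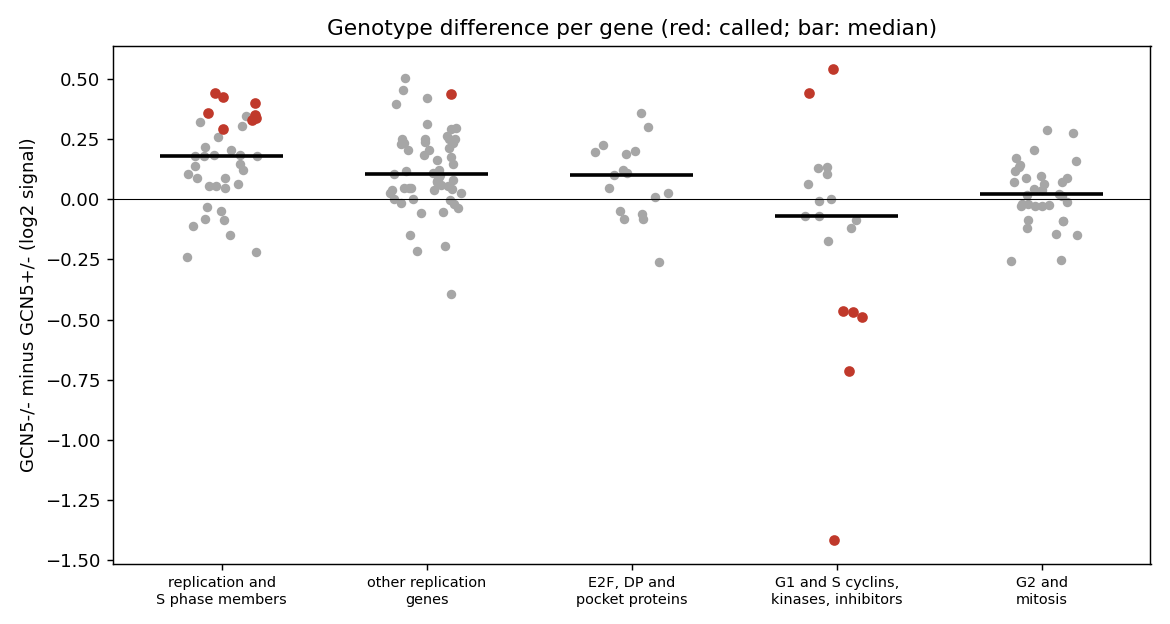
Difference in log2 signal (vertical axis, GCN5-/- minus GCN5+/-) of each tested gene in the members and in the 4 neighbouring lists, with called genes in red and the list median as a bar. The medians are 0.18 for the members, 0.10, 0.10, -0.07 and 0.02 for the other lists, and the called genes of the G1 and S phase list lie on both sides of 0.

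Some markers of cell identity also differed between the groups. Of 10 fibroblast markers 5 were called, all lower (Col1a1, Col3a1, Pdgfra, Pdgfrb and Dcn), against 4.77% of all genes. Those not called had values on both sides of 0: S100a4 0.37, Vim 0.07, Fn1 0.03, Col1a2 -0.20 and Thy1 -0.32. The summed linear signal over the 10 genes was 145655 to 161187 in GCN5+/- and 142330 to 145678 in GCN5-/- arrays. Of 8 measured leukocyte markers 1, Cd53, was called higher (5.09% of all genes). Ptprc, Adgre1 and Itgam were below the level filter, and the summed signal was 1347 to 2085 in GCN5+/- and 1720 to 3006 in GCN5-/- arrays. None of 5 endothelial or 5 epithelial markers was called. Whether these shifts have a part in the differences of the replication genes was not tested.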

How the data were processed

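Total RNA of 6 cultures was read on Affymetrix arrays. The values the authors deposited are log2 signals, 1 per probe set, with the scale read from the values (3.13 to 15.2). MAS5 (6 samples) and Partek (1 sample) are named per the submitters' processing notes; how background was corrected and arrays normalized is not given in the sources used here. Medians of the arrays nearly coincide, so a change shared by most genes would not be seen. Depth does not apply to arrays, and their number limits the precision.

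Of 45101 probe sets 64 controls were left out, and 34945 of the rest carry 1 gene symbol in the platform annotation. Tests used limma 3.58.1 in R 4.3.3 (lmFit, eBayes with a variance trend) on the 27022 probe sets with mean log2 signal at or above the 40th percentile (6.80). Genotype and line were fitted together; a second fit with their product gave the interaction and the effect within line A, whose 2 residual degrees of freedom come from the duplicates of line A. P-values were adjusted by Benjamini-Hochberg over all probe sets tested, at 0.05. Only the Kat2a values came from the same fit without the level filter. Errors are SEs of the fit, and intervals cover 95%. The code was tested on simulated data.

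Replicate names pair the arrays by line: deviations from group means correlated at 0.637, 0.657 and 0.804 for A1, A2 and B (0.430 and 0.348 for crossed A arrays). No array copied another (38 to 62 identical values per pair). All members were named, and up to 6 called genes per direction of each neighbouring list, by smallest p. Cdkn1a, Cdkn2d, Ccnd1 and the marker genes were added after their values were seen. Members and lists were chosen with earlier results of these data known. Alternatives covered the line term, a replicate block, averaged duplicates, the level filter, quantile normalization, the variance trend, the probe set standing for a gene, and each array left out.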

Additional observations from a re-analysis of the deposited data

Results flagged for a closer look

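For 10 members the genotype difference was positive in both line A pairs and negative in line B at the brightest probe set. The line B value was -0.21 for Gins1, -0.30 for Prim1, -0.068 for Rfc5, -0.035 for Fen1, -0.34 for Lig1, -0.26 for Tk1, -0.098 for Dut, -0.12 for Cdc6, -0.032 for E2f1 and -0.013 for E2f2. The matching line A values ran from 0.045 for Lig1 to 0.47 for E2f2. The difference between lines was tested by the interaction term in limma and was called for none of the 10, with adjusted p from 0.253 (Tk1) to 0.821 (Cdc6), and for Tk1 it was called with the replicate block. The reverse pattern, negative in line A and positive in line B, was seen for 0 members. How many of all genes show either pattern was not counted, so these counts cannot be read as a trait of the members. Line B has 1 array per group, so its sign has no replicate check. Other tested probe sets of the same genes did not all share the pattern: in line B the second probe set gave 0.17 for Dut, 0.28 for E2f2 and 0.048 for E2f1, and that of Prim1 was negative in all 3 pairs.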

How the results depend on the processing

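The 8 members called were the same 8 with the replicate block, quantile normalization and the level filter at the 60th percentile. No level filter gave 7, no variance trend 4, line as a random block 2, no line term 0 and averaged line A duplicates 0; leaving out 1 array gave 0 to 11. Over all probe sets 2299 were called, against 69 without a line term, 532 with line as a random block, 709 with averaged duplicates, 2627 with the replicate block and 636 to 2321 with 1 array left out. The number of members called lower stayed at 0. The replicate block changed the interaction from 0 to 1 call and the line A count from 11 to 18, gave 9 members higher in line B in place of 8, and changed no other call of a member. The line A count was 1 without the variance trend and 5 to 10 with 1 line A array left out. Members higher in line B numbered 3 to 11 with 1 array left out; the 1 member lower in line B became 0 with averaged duplicates, no level filter or no variance trend, and 0 to 2 with 1 array left out. Among the members and settings run, signs turned only for genes that were not called: Prim1 (0.10), Lig1 (0.045) and Rrm1 (0.014) without either line B array or in line A alone, and Tk1 with averaged duplicates (-0.016). With 1 array left out they ranged from -0.077 to 0.10 for Prim1, -0.13 to 0.045 for Lig1, -0.11 to 0.014 for Rrm1, -0.021 to 0.14 for Pola1, -0.0079 to 0.21 for Pole and -0.0094 to 0.23 for Tk1. The cause was not tested. The interaction could not be fitted without a line B array or with averaged duplicates, and was not run without a line term or with line as a random block; the line effect has no value in those last settings.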
